A study of Mus musculus with 6 samples.

Results

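The 36 aminoacyl-tRNA synthetase genes described here were chosen by name, 20 for the cytosolic enzymes and 16, with symbols ending in the number 2, for the mitochondrial enzymes. All 36 were among the 23337 gene symbols of the count table, and all 36 passed the filter on low counts, as did 12923 genes in all. Transcripts were counted by RNA sequencing in macrophages grown from C57BL/6 mouse bone marrow with M-CSF until day 7. The 3 groups were cells lacking Ch25h (Ch25hKO), cells lacking both liver X receptor genes, named LXRab in the labels (LXRdKO), and wild-type cells (WT), with 2 libraries each. Every group, WT included, had been given LPS at 100 ng/ml for 8 h, so no value shows a response to LPS. No label tells if a group's pair of libraries stands for separate mice or cultures, and p-values therefore reflect library-to-library spread alone, which could be technical.

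An aminoacyl-tRNA synthetase joins 1 amino acid to its matching tRNA, and the charged tRNA then serves the ribosome. Cytosol and mitochondria mostly use separate enzymes, all encoded in the nucleus, although Gars and Kars each supply both compartments. Several cytosolic enzymes sit together in the multisynthetase complex, which is held by the scaffold proteins encoded by Aimp1, Aimp2 and Eef1e1. Many cytosolic synthetase genes are known targets of ATF4, a transcription factor of the amino acid and integrated stress responses, and Wars is known as an interferon-inducible gene. Ch25h encodes the enzyme that makes 25-hydroxycholesterol, and the liver X receptors are nuclear receptors for such oxysterols.

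Total counts ranged from 41650513 to 45872964 per library. The targeted genes fitted the labels, with Ch25h at 1.61% of the WT level in Ch25hKO, and Nr1h3 and Nr1h2, the genes of the 2 receptors, at 5.65% and 2.59% in LXRdKO. All 8 macrophage markers in the table were detected, with a summed level of 17040 to 17690 CPM (read counts as a rate per scaled library size) in Ch25hKO, 20360 to 20540 CPM in LXRdKO and 17070 to 18520 CPM in WT. Markers of other cells also differed between the groups. The 4 stromal markers summed to 19.0 to 19.5 CPM in Ch25hKO, 10.4 to 11 CPM in LXRdKO and 7.11 to 7.16 CPM in WT. Dendritic cell markers, 5 in number, summed to 10.5 to 11.6 CPM in Ch25hKO, 18 to 19.3 CPM in LXRdKO and 23.8 to 24.6 CPM in WT. Xcr1 and Ccr7 made up most of this sum, and they differed in their order over the groups. Xcr1 had group means of 4.8 CPM in Ch25hKO, 13.8 CPM in LXRdKO and 13.6 CPM in WT. Ccr7 had 5.7 CPM in Ch25hKO, 4.3 CPM in LXRdKO and 9.8 CPM in WT. The 6 neutrophil markers in the table summed to 52.2 to 55.1 CPM in Ch25hKO, 19.3 to 19.8 CPM in LXRdKO and 39.5 to 40.2 CPM in WT. Most of this sum was S100a8, with 48.1 and 50.4 CPM in Ch25hKO, 16.4 and 16.6 CPM in LXRdKO, and 35.9 and 35.1 CPM in WT. Elane, also on this list, had 0 counts in both knockouts and 1 count in WT. Markers of B cells, of T and NK cells, and of erythroid cells and megakaryocytes each summed to under 3 CPM in every library, and Gata1, which defines the last of these, had 0 counts in Ch25hKO. The part of these cells in the results below was not tested, and in bulk RNA fewer cells of a type and less RNA per cell cannot be told apart.

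Per length of exon, most cytosolic synthetases were far more abundant than their mitochondrial counterparts. The level per length was CPM per kb of the union of annotated exons, given as RPKM. Cytosolic members had a median of 6.74 RPKM in Ch25hKO, 4.91 RPKM in LXRdKO and 5.57 RPKM in WT, over 20 genes. The 16 mitochondrial members had medians of 0.729 RPKM in Ch25hKO, 0.665 RPKM in LXRdKO and 0.625 RPKM in WT. The order of the leading genes was alike in the 3 genotypes. Lars2, for mitochondrial leucine, was first with 56.3 ± 1.08 RPKM in Ch25hKO, 52.7 ± 2.68 RPKM in LXRdKO and 59.4 ± 1.97 RPKM in WT (SD, n = 2 each). Rars, for arginine, and Nars, for asparagine, came next, and in Ch25hKO they stood close together at 33.6 ± 0.438 and 32.1 ± 0.276 RPKM (SD, n = 2). In WT Rars stood at 48.3 ± 3.66 RPKM and Nars at 35.7 ± 2.47 RPKM (SD, n = 2). Wars, for tryptophan, was the fourth in all genotypes, with 19.4 ± 0.863 RPKM in Ch25hKO, 24.5 ± 1.61 RPKM in LXRdKO and 26.3 ± 1.87 RPKM in WT (SD, n = 2 each). Below it, neighbours in the order could lie within their spread, as Dars (5.78 ± 0.454 RPKM) and Farsb (5.65 ± 0.907 RPKM) did in WT (SD, n = 2). The lowest cytosolic members were Yars, for tyrosine, and Vars, for valine, at 0.911 ± 0.0559 and 0.561 ± 0.0549 RPKM in WT (SD, n = 2). Mars2, for mitochondrial methionine, was the lowest of all, at 0.0367 RPKM in Ch25hKO, 0.0272 RPKM in LXRdKO and 0.0272 RPKM in WT, and its counts lay between 11 and 18 per library.

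**Figure D1:**
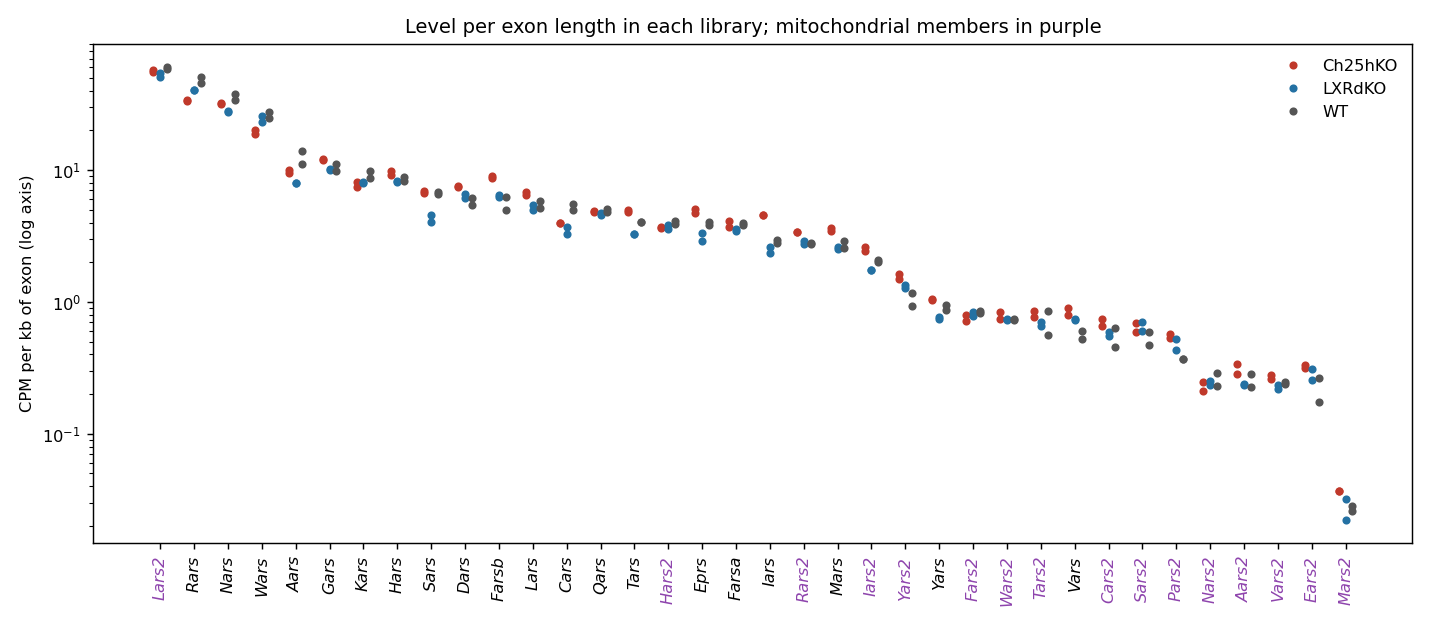
Level of each synthetase gene per exon length (CPM per kb of exon, log axis) in each of 2 Ch25hKO, 2 LXRdKO and 2 WT libraries, as points, with genes ordered by their WT mean and mitochondrial members in purple. Lars2 leads at 52.7 to 59.4 as a group mean, Rars, Nars and Wars follow, and Mars2 is lowest.

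Lars2 stood apart from its class. It supplied 88.3% of all mitochondrial synthetase CPM in both Ch25hKO libraries, 88.7% and 89.7% in LXRdKO, and 90.5% and 89.5% in WT. Hars2, for histidine, was next in its class in WT, at 3.998 ± 0.110 RPKM (SD, n = 2). Sums over the mitochondrial class are therefore given both without and with Lars2 below. Reads of Rn45s, the precursor of ribosomal RNA, made up 1.26% and 1.27% of counts in Ch25hKO, 1.01% and 1.06% in LXRdKO, and 1.30% and 1.27% in WT, and its fold change in LXRdKO against WT (-0.28 ± 0.06, edgeR adjusted p = 0.00273) had the same sign as that of Lars2 (-0.17 ± 0.06). Any part of ribosomal reads in the Lars2 counts was not tested.

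Promoter sequences were read for the members that RefSeq's table on GRCm38.p6 lists, 26 of 36, each from 250 bases before to 50 bases after the gene's start. Cars, Hars, Lars, Mars, Nars, Rars, Vars, Wars, Hars2 and Pars2 had no entry. Their promoters were not searched, so nothing is known here of motifs in them. Searched on both strands, TGATGNAA, a core of the C/EBP-ATF response element that ATF4 binds, was present in 5 of 12 cytosolic members (41.7%) and 0 of 14 mitochondrial members, against 4.51% of 27025 genes in the table. The 5 genes were Aars, Gars, Iars, Tars and Yars. GAAANNGAA, a core of the interferon-stimulated response element, was in 1 of the 12 cytosolic members (Qars, 8.33%) and 0 of the 14 mitochondrial ones, against 9.76% of genes. TTCNNNGAA, the gamma-interferon activated site, was in Aars and Kars (16.7%) and in Nars2 (7.14%), against 9.55% of genes. In Aars it lay between the pair of TGATGNAA matches and overlapped neither. Such matches describe letters in these windows and no binding. The matches to TGATGNAA are shown because Iars, Tars and Aars are among the members with the lowest p-values below. Each is printed 5′ to 3′ on the gene's strand with 60 bases on either side where the window allows, and capitals mark the match.

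Iars, chr13:49682077-49682179, + strand: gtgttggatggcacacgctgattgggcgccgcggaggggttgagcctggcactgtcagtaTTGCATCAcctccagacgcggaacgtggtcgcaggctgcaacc
Tars, chr15:11399609-11399733, - strand: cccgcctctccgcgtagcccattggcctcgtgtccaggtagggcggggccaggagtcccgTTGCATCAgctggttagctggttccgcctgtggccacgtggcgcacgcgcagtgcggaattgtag
Aars, chr8:111033670-111033891, + strand: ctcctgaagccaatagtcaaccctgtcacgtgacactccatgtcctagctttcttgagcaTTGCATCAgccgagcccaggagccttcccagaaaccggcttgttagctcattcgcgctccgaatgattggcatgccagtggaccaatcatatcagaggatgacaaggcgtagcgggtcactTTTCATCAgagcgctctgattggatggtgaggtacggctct
Gars, chr6:55037911-55038038, + strand: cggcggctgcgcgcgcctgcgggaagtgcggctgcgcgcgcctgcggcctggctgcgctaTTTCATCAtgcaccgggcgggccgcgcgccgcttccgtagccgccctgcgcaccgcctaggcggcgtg
Yars, chr4:129189846-129189952, + strand: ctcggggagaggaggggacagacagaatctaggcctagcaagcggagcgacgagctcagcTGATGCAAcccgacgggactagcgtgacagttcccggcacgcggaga

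Iars, Tars and Aars share the letters of the unbroken TTGCATCA core, Yars carries the same core read on the other strand, and Gars and the second Aars match have TTTCATCA. Of these 5 genes, Iars, Tars and Gars were higher and Aars lower in Ch25hKO than in WT, and Yars did not pass the test. In LXRdKO, Iars, Tars and Aars were lower than in WT, and Gars and Yars did not pass.

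In Ch25hKO the cytosolic synthetases split into a group above and a group below WT. Of 20 members, 9 rose, 6 fell and 5 did not pass edgeR's quasi-likelihood test at a Benjamini-Hochberg adjusted p under 0.05, so 75.0% were called, against 39.3% of all 12923 genes tested (19.8% higher and 19.5% lower). These members had a median of 1294 counts per library, and the share called among genes of like depth is not given here. A larger share of calls than among all genes therefore does not show that the class changed more. The same limit holds for the shares called in the comparisons below. The median log2 fold change of the cytosolic members was 0.18, and that of all genes was 0.01. Rises were led by Iars, Farsb and Vars, and falls by Rars, Wars and Cars. Without WT replicate 2 the cytosolic median was 0.10. The WT libraries also differed most from each other. Over both classes, the median absolute log2 ratio of replicates was 0.14 in WT, 0.07 in Ch25hKO and 0.09 in LXRdKO. All 6 cytosolic members that fell were higher in WT replicate 1 than in WT replicate 2 (log2 ratios of 0.14 to 0.34). Those that rose were lower in WT replicate 1, except Gars and Lars. The part of this spread in the split was not tested. Fold changes below are log2 values ± their standard error (n = 2 in each group), with p adjusted in edgeR over every gene tested. Whether libraries overlap between groups is given as description and adds no support to a call. Hars and Cars2, for example, did not overlap between Ch25hKO and WT and did not pass. The share of all genes without overlap is not given here.

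**Figure D2:**
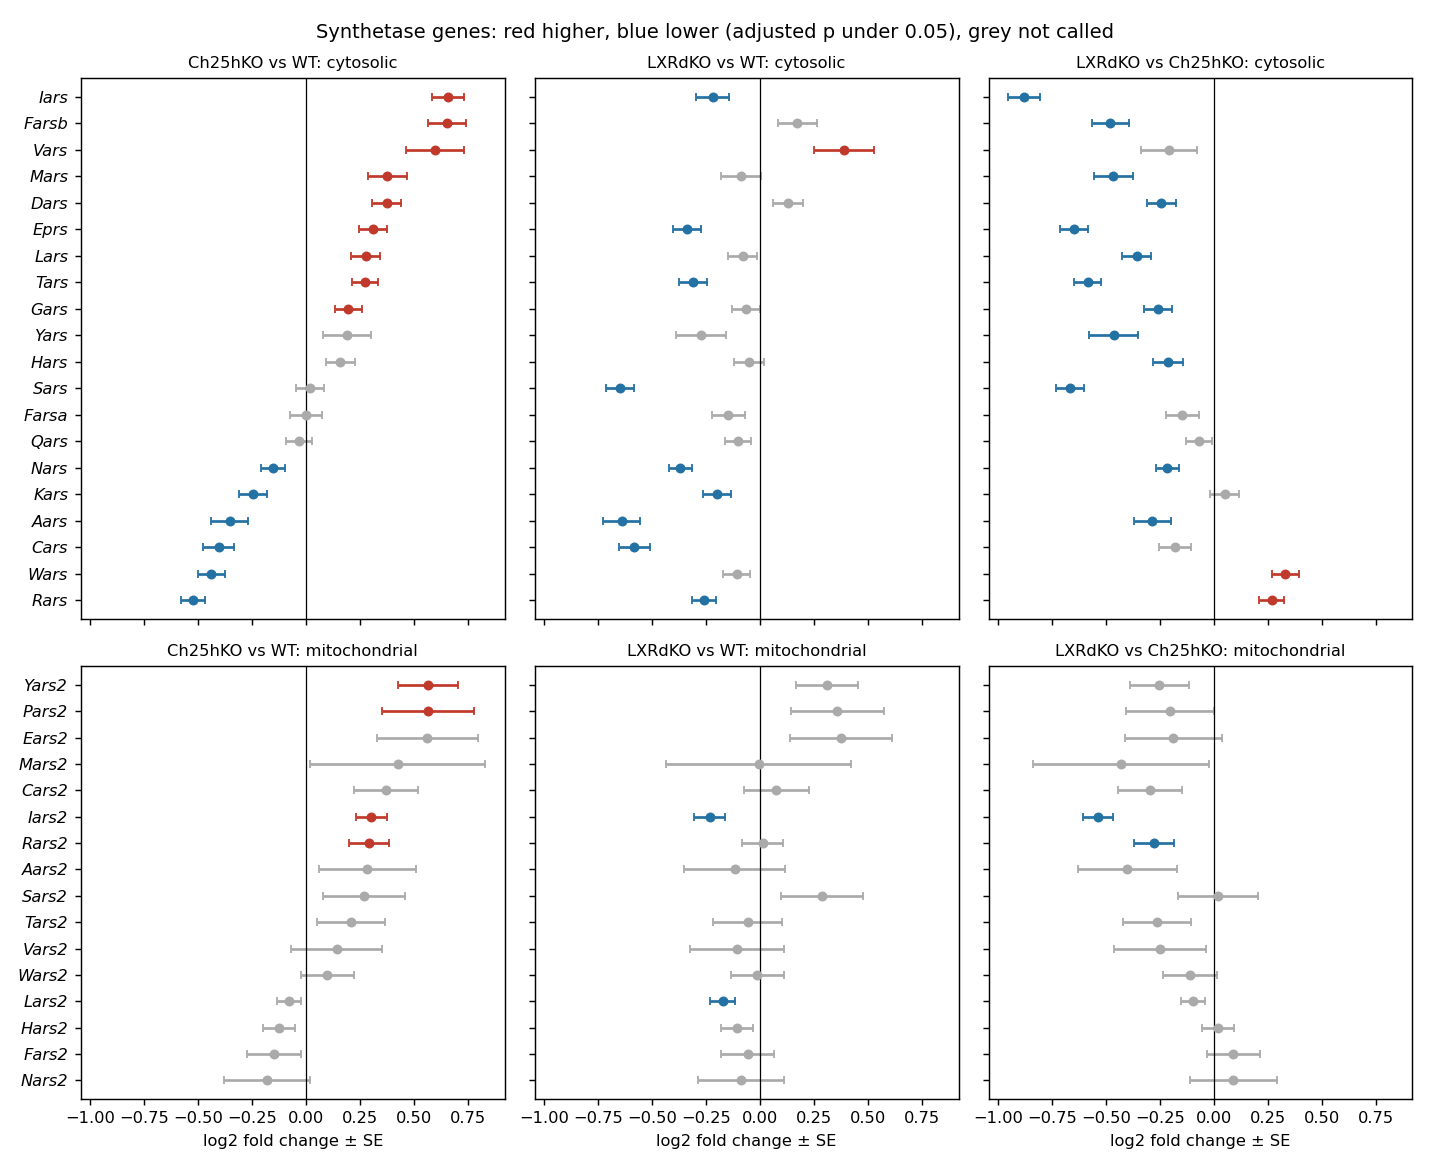
Log2 fold change ± SE of each synthetase gene (rows) for Ch25hKO against WT, LXRdKO against WT and LXRdKO against Ch25hKO (columns), with cytosolic members above and mitochondrial members below, n = 2 libraries per group. At an adjusted p under 0.05, 9 cytosolic members were called higher and 6 lower than WT in Ch25hKO, and 1 higher and 9 lower in LXRdKO.

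Members of the multisynthetase complex were among the clearest rises in Ch25hKO, but its member Rars, with the lowest p of the cytosolic class, fell. Iars, which charges isoleucine tRNA (ENSMUSG00000037851 in GENCODE, chromosome 13), had 24.0 and 24.1 CPM in Ch25hKO and 14.8 and 15.6 CPM in WT. The groups did not overlap, and the gene rose by 0.66 ± 0.07 (edgeR adjusted p = 1.54e-06). Dars, for aspartate, had 32.5 and 32.8 CPM in Ch25hKO and 23.8 and 26.6 CPM in WT, a rise of 0.37 ± 0.07 (edgeR adjusted p = 0.000248). Both Ch25hKO libraries again lay above both WT libraries. Eprs, the fused enzyme for glutamate and proline, rose by 0.31 ± 0.07, Mars, for methionine, by 0.38 ± 0.09, and Lars, for leucine, by 0.28 ± 0.07. In all, 5 of 8 complex members rose and 2, Rars and Kars, fell. Outside the complex 4 of 12 rose and 4 fell, against 19.8% higher and 19.5% lower among all genes. Summed over the 8 complex members, the level was 369 and 367 CPM in Ch25hKO and 389 and 371 CPM in WT, so the sum did not rise. Qars, for glutamine, did not pass (-0.03 ± 0.06), and its libraries overlapped between the groups.

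Outside the complex, Farsb showed the largest rise. It encodes the beta subunit of the phenylalanine enzyme and had 23.6 and 22.9 CPM in Ch25hKO and 13.1 and 16.5 CPM in WT (0.65 ± 0.09, edgeR adjusted p = 1.28e-05). Farsa, which encodes the alpha subunit of the same enzyme, was at 0.00 ± 0.08, with 16.9 and 18.7 CPM in Ch25hKO and 18.1 and 17.4 CPM in WT. The libraries of Farsa overlapped and those of Farsb did not. The difference between both subunit genes was itself not tested. Vars rose by 0.60 ± 0.14, Tars, for threonine, by 0.27 ± 0.06, and Gars, for glycine, by 0.20 ± 0.06. Hars (histidine), Yars and Sars (serine) stood at 0.16 ± 0.07, 0.19 ± 0.11 and 0.02 ± 0.06 and did not pass.

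The members that fell in Ch25hKO included the most abundant ones. Rars, on chromosome 11, had 107 and 109 CPM in Ch25hKO and 164 and 148 CPM in WT. This was 69.5% of the WT level (-0.52 ± 0.06, edgeR adjusted p = 9.00e-07), and the groups were far apart. Wars, on chromosome 12, had 64.9 and 69.1 CPM in Ch25hKO and 95.3 and 86.3 CPM in WT (-0.44 ± 0.06, edgeR adjusted p = 2.39e-05). Cars, for cysteine, had 26.1 and 26.1 CPM in Ch25hKO and 36.7 and 32.5 CPM in WT (-0.40 ± 0.07, edgeR adjusted p = 0.000213). In these genes too both knockout libraries lay below both WT libraries. Aars, for alanine, fell by 0.35 ± 0.09, Kars, for lysine, by 0.25 ± 0.07 and Nars by 0.15 ± 0.05. The WT libraries of Aars differed widely, at 130 and 103 CPM, against 88.6 and 93.1 CPM in Ch25hKO.

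Single libraries decided some of the smaller cytosolic changes in Ch25hKO. Calls were lost for Nars without WT replicate 1 (-0.08), Ch25hKO replicate 1 (-0.15), Ch25hKO replicate 2 (-0.16) or either LXRdKO library (-0.15) and with the replicate block (edgeR adjusted p = 0.0544 with the block), and for Gars without WT replicate 2 (0.09), Ch25hKO replicate 1 (0.18) or Ch25hKO replicate 2 (0.21). Kars (-0.20) and Lars (0.23) lost theirs without Ch25hKO replicate 1, and Hars gained one without WT replicate 1 (0.21). DESeq2 also gave no call for Gars. A fit of the compared libraries alone gave none for Nars (edgeR adjusted p = 0.064). The 11 cytosolic calls that held in every alternative tried were the rises of Dars, Eprs, Farsb, Iars, Mars, Tars and Vars and the falls of Aars, Cars, Rars and Wars, where a filter of at least 5 CPM left Vars untested.

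**Figure D3:**
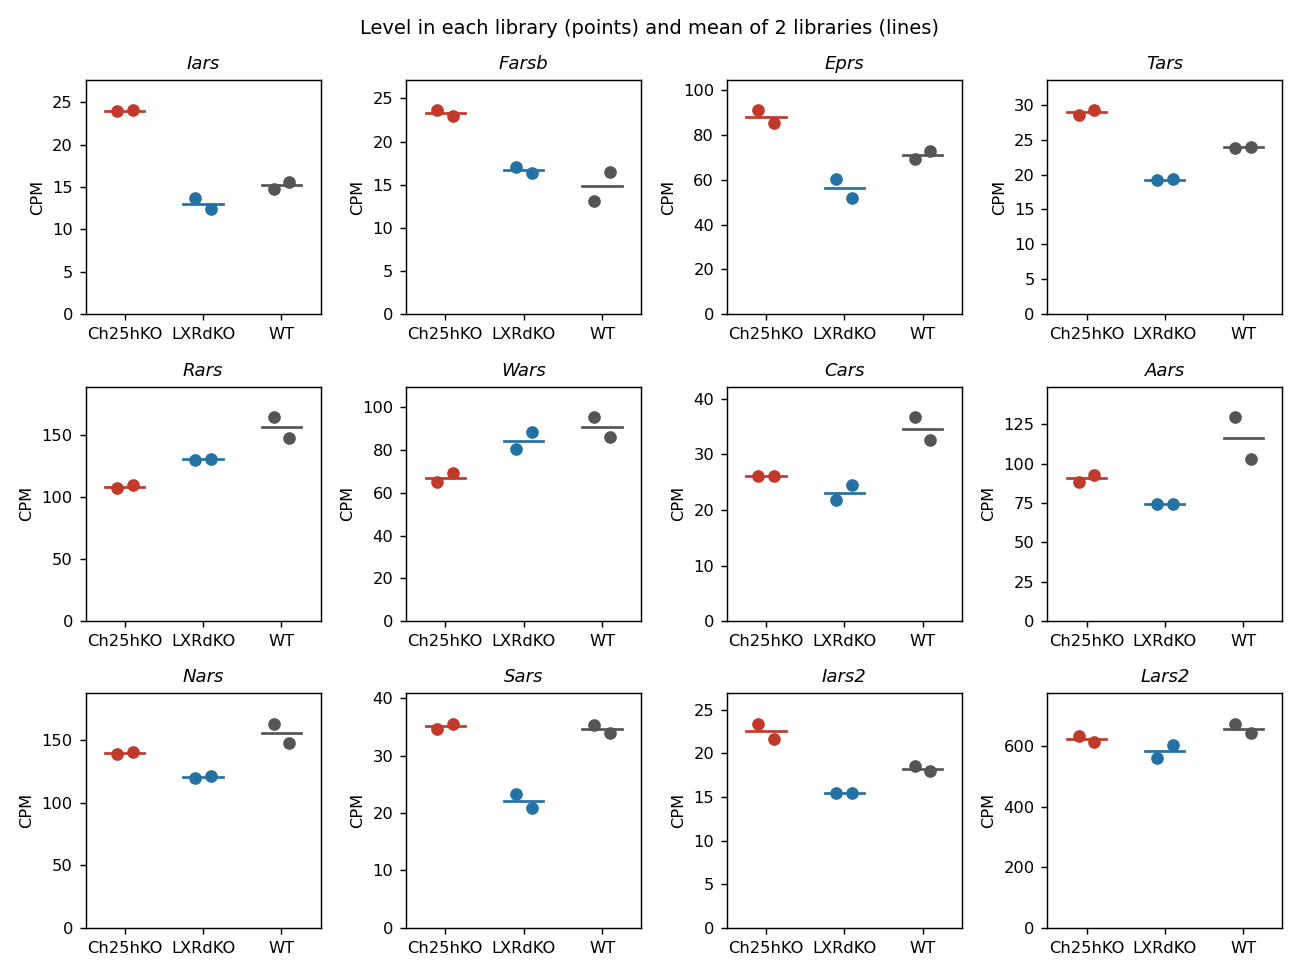
Level in CPM of 12 synthetase genes in each library (points) with the mean of 2 libraries (lines), for Ch25hKO, LXRdKO and WT from left to right. Iars and Farsb stand highest in both Ch25hKO libraries, Rars and Wars lowest there, and Sars lowest in both LXRdKO libraries at 23.4 and 20.8 CPM.

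Mitochondrial synthetases moved in 1 direction where they were called in Ch25hKO. Of 16 members, 4 rose and 0 fell by edgeR, or 25% against 39.3% of all genes, and the median log2 fold change was 0.28. The count of falls was also 0 at an unadjusted p under 0.05, with DESeq2 and with limma-voom. Iars2, for mitochondrial isoleucine, had 23.4 and 21.7 CPM in Ch25hKO and 18.5 and 17.9 CPM in WT (0.30 ± 0.07, edgeR adjusted p = 0.00217). Yars2, for tyrosine, had 4.68 and 5.16 CPM in Ch25hKO and 2.95 and 3.71 CPM in WT (0.56 ± 0.14, edgeR adjusted p = 0.00365). Both genes were higher in each Ch25hKO library than in each WT library. Rars2, for arginine, had 9.39 and 9.47 CPM in Ch25hKO and 7.79 and 7.62 CPM in WT (0.29 ± 0.09, edgeR adjusted p = 0.0188). Pars2, for proline, had 1.64 and 1.77 CPM in Ch25hKO and 1.148 and 1.151 CPM in WT (0.56 ± 0.21, edgeR adjusted p = 0.0434). Neither gene's libraries overlapped between the groups.

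The other 12 mitochondrial members did not pass in Ch25hKO. Cars2 and Ears2, for cysteine and glutamate, stood at 0.37 ± 0.15 and 0.56 ± 0.23, and Lars2, with by far the most counts, at -0.08 ± 0.06. Lower counts gave wider errors, since the median member had 186 counts per library and a standard error of 0.15, against 1294 counts and 0.07 for the cytosolic class. A smaller share of calls therefore does not show that the mitochondrial genes changed less. Without Ch25hKO replicate 1 only Yars2 kept its call, with Iars2 at 0.24, Rars2 at 0.29 and Pars2 at 0.61. The calls of Rars2 and Pars2 were also lost without Ch25hKO replicate 2 (0.28 and 0.51) or WT replicate 2 (0.26 and 0.55), and that of Pars2 without WT replicate 1 (0.56) or either LXRdKO library (0.56), and with the replicate block (edgeR adjusted p = 0.0583 with the block). DESeq2 gave no call for Rars2 and Pars2. The call of Pars2 was also lost with limma-voom (limma-voom adjusted p = 0.0505). A fit of the compared libraries alone lost it as well (edgeR adjusted p = 0.0529). Without WT replicate 2, Cars2 (0.61), Ears2 (0.87) and Tars2 (0.53) passed.

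In LXRdKO the cytosolic synthetases that passed the test were lower than in WT, with the exception of Vars. Of 20 members, 9 fell, 1 rose and 10 did not pass, so 50% were called, against 31.8% of all genes (16.4% higher and 15.5% lower). Their median log2 fold change was -0.17, and 17 of 20 lay below 0. Sars, Aars and Cars led the falls. Both knockouts were set against the same WT libraries, so the 2 comparisons are not independent.

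Sars, on chromosome 3, had 23.4 and 20.8 CPM in LXRdKO and 35.3 and 34.0 CPM in WT. It fell to 63.8% of the WT level (-0.65 ± 0.07, edgeR adjusted p = 7.68e-07), with LXRdKO far below WT, while both Ch25hKO libraries, at 34.7 and 35.5 CPM, lay within or beside the WT range. Aars had 74.5 and 74.5 CPM in LXRdKO and 130 and 103 CPM in WT (-0.64 ± 0.09, edgeR adjusted p = 0.000106). Cars had 21.7 and 24.5 CPM in LXRdKO and 36.7 and 32.5 CPM in WT (-0.58 ± 0.07, edgeR adjusted p = 7.60e-06). The groups were separate for both genes. Nars had 120 and 121 CPM in LXRdKO and 163 and 148 CPM in WT (-0.37 ± 0.06, edgeR adjusted p = 5.46e-05). Eprs had 60.3 and 52.0 CPM in LXRdKO and 69.3 and 72.7 CPM in WT (-0.34 ± 0.07, edgeR adjusted p = 0.000691). Tars had 19.2 and 19.4 CPM in LXRdKO and 23.8 and 24.0 CPM in WT (-0.31 ± 0.06, edgeR adjusted p = 0.00113). In all 3 genes each LXRdKO library lay below each WT library.

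The remaining cytosolic calls in LXRdKO were smaller or less stable. Rars fell by 0.26 ± 0.06, Iars by 0.22 ± 0.08 and Kars by 0.20 ± 0.07, and Vars rose by 0.39 ± 0.14 (edgeR adjusted p = 0.0394). Vars passed without WT replicate 2 and lost its call without each of the other 5 libraries (0.29 to 0.40), with DESeq2 and with the replicate block (edgeR adjusted p = 0.0560 with the block). Iars lost its call without LXRdKO replicate 2 (-0.15), WT replicate 2 (-0.19) or either Ch25hKO library (-0.22 and -0.23), and with the replicate block (edgeR adjusted p = 0.0540 with the block). Kars lost it without LXRdKO replicate 1 (-0.18), LXRdKO replicate 2 (-0.21) or WT replicate 1 (-0.11). Iars and Kars also lost their calls with DESeq2. A fit of the compared libraries alone gave no call for Iars (edgeR adjusted p = 0.0625) or Vars (edgeR adjusted p = 0.0604). Without WT replicate 2, Dars (0.20) and Farsb (0.33) passed as higher and Wars (-0.19) as lower. The falls of Aars, Cars, Eprs, Nars, Rars, Sars and Tars held in every alternative tried.

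Few mitochondrial synthetases were called in LXRdKO. Of 16 members, 2 fell and 0 rose by edgeR, or 12.5% against 31.8% of all genes, and the median log2 fold change was -0.03. At an unadjusted p under 0.05, 1 rose, and 0 rose with DESeq2 and with limma-voom. Iars2 had 15.5 and 15.5 CPM in LXRdKO and 18.5 and 17.9 CPM in WT (-0.23 ± 0.07, edgeR adjusted p = 0.0202). Lars2 had 563 and 605 CPM in LXRdKO and 674 and 644 CPM in WT (-0.17 ± 0.06, edgeR adjusted p = 0.0247). Neither gene overlapped between the groups. Yars2, with 4.26 and 4.003 CPM in LXRdKO and 2.95 and 3.71 CPM in WT, was at 0.31 ± 0.14 and did not pass (edgeR adjusted p = 0.106). Pars2 had 1.62 and 1.33 CPM in LXRdKO and 1.148 and 1.151 CPM in WT and did not pass either (0.36 ± 0.22, edgeR adjusted p = 0.226). The call of Iars2 was lost without LXRdKO replicate 1 (-0.23), LXRdKO replicate 2 (-0.23) or WT replicate 1 (-0.21), and that of Lars2 without LXRdKO replicate 1 (-0.12) or WT replicate 1 (-0.14). Iars2 also missed the threshold with DESeq2. With the replicate block, Lars2 also missed the threshold (edgeR adjusted p = 0.0519 with the block). Without WT replicate 2, Yars2 passed (0.47).

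Set directly against Ch25hKO, LXRdKO cells had lower levels of most cytosolic synthetases. Of 20 members, 13 fell and 2 rose, or 75.0% against 37.9% of all genes (19.3% higher and 18.6% lower), with a median of -0.25. Iars had 13.7 and 12.4 CPM in LXRdKO and 24.0 and 24.1 CPM in Ch25hKO, or 54.4% of the Ch25hKO level (-0.88 ± 0.08, edgeR adjusted p = 3.96e-08). Sars fell by 0.67 ± 0.07 (edgeR adjusted p = 2.71e-07), Eprs by 0.65 ± 0.07 (edgeR adjusted p = 3.24e-07), and Tars by 0.58 ± 0.06 (edgeR adjusted p = 7.56e-07). Their libraries did not overlap between the knockouts. Farsb had 17.0 and 16.3 CPM in LXRdKO and 23.6 and 22.9 CPM in Ch25hKO (-0.48 ± 0.09, edgeR adjusted p = 0.000242). Lars had 28.9 and 26.9 CPM in LXRdKO and 36.6 and 34.9 CPM in Ch25hKO (-0.36 ± 0.07, edgeR adjusted p = 0.000350). Each LXRdKO library again lay below each Ch25hKO library.

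The only cytosolic members higher in LXRdKO than in Ch25hKO were Wars and Rars. Wars had 80.4 and 88.2 CPM in LXRdKO and 64.9 and 69.1 CPM in Ch25hKO (0.33 ± 0.06, edgeR adjusted p = 0.000371). Rars had 130 and 131 CPM in LXRdKO and 107 and 109 CPM in Ch25hKO (0.27 ± 0.06, edgeR adjusted p = 0.000932). Both genes had separate groups, and both calls held in every alternative tried. Kars, at 35.8 and 36.5 CPM in LXRdKO and 33.4 and 36.4 CPM in Ch25hKO, overlapped and did not pass (0.05 ± 0.07). Falls that rested on single libraries were those of Aars, lost without LXRdKO replicate 1 (-0.29), LXRdKO replicate 2 (-0.29) or Ch25hKO replicate 2 (-0.25), of Hars, lost without LXRdKO replicate 1 (-0.22), LXRdKO replicate 2 (-0.20) or Ch25hKO replicate 1 (-0.15), and of Dars, lost without LXRdKO replicate 2 (-0.19) or Ch25hKO replicate 2 (-0.24). The falls of Aars and Hars were lost with DESeq2 as well. Gars lost its fall without LXRdKO replicate 2 (-0.24), and Nars without LXRdKO replicate 1 (-0.21). Cars, not called here (-0.18 ± 0.07), passed without LXRdKO replicate 2 (-0.27) or either WT library (-0.18).

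Among mitochondrial members, 2 of 16 fell and 0 rose in LXRdKO against Ch25hKO by edgeR, or 12.5% against 37.9% of all genes, with a median of -0.23. The count of rises was 0 at an unadjusted p under 0.05, with DESeq2 and with limma-voom. Iars2 had 15.5 and 15.5 CPM in LXRdKO and 23.4 and 21.7 CPM in Ch25hKO (-0.54 ± 0.07, edgeR adjusted p = 8.89e-06), a call held in every alternative tried. Rars2 had 7.59 and 7.96 CPM in LXRdKO and 9.39 and 9.47 CPM in Ch25hKO (-0.28 ± 0.09, edgeR adjusted p = 0.0245). Its groups were separate, but its call was lost without any 1 of the 4 knockout libraries (-0.31 to -0.24) and with DESeq2. Cars2 (-0.29 ± 0.15, edgeR adjusted p = 0.128) and Yars2 (-0.25 ± 0.14, edgeR adjusted p = 0.160) did not pass.

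The direction of the calls across both knockouts sorted the members into a few patterns. Iars, Eprs and Tars, and Iars2 among the mitochondrial members, were higher in Ch25hKO and lower in LXRdKO than in WT, and all 4 also differed between the knockouts. Aars, Cars, Kars, Nars and Rars, 5 cytosolic members, were lower in both knockouts. Vars was the only member higher in both. Of these members, Eprs, Tars, Aars, Cars and Rars kept their calls against WT in both knockouts in every alternative tried. Iars, Iars2, Kars, Nars and Vars each lost a call against WT in some alternatives, as given above. Sars was called lower in LXRdKO and not called in Ch25hKO, and the knockouts differed from each other. Wars was lower in Ch25hKO, at -0.11 ± 0.06 in LXRdKO against WT, and the knockouts differed. Neither knockout gave a call for Farsa, Hars, Qars and Yars of the cytosolic class or for 11 of 16 mitochondrial members. The share of all genes with each pattern is not given here, so these counts describe the members only. Both comparisons share the WT libraries, which by itself favours like directions in both knockouts.

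Cytosolic and mitochondrial enzymes for the same amino acid were set side by side as pairs. Of 17 pairings, both partners rose in 2 in Ch25hKO, Iars with Iars2 and Eprs with Pars2, and both fell in 0. Arginine showed opposite calls, with Rars at -0.52 ± 0.06 and Rars2 at 0.29 ± 0.09 in Ch25hKO against WT. The same pair was opposite between the knockouts, with Rars at 0.27 ± 0.06 and Rars2 at -0.28 ± 0.09 in LXRdKO against Ch25hKO. In LXRdKO against WT, both partners fell in 1 pairing, Iars with Iars2, and the same pairing was lower in LXRdKO than in Ch25hKO. The widest gap there was that of serine, with Sars at -0.65 ± 0.07 and Sars2 at 0.29 ± 0.19, of which only Sars passed. Differences between partners were not tested, and those resting on Rars2 depend on the libraries named above. No share over other pairs of genes is given beside these counts.

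Summed over the class, cytosolic synthetases took 864 and 873 CPM in Ch25hKO, 770 and 765 CPM in LXRdKO, and 969 and 892 CPM in WT. Both knockouts thus lay below WT, and LXRdKO lay below Ch25hKO. In Ch25hKO more members rose than fell, yet the sum lay below WT in both libraries. Rars, Nars, Aars and Wars, all of which fell there, had the 4 highest CPM of the class in WT. The 15 mitochondrial members without Lars2 summed to 84.3 and 81.3 CPM in Ch25hKO, 71.7 and 69.6 CPM in LXRdKO, and 71.0 and 75.3 CPM in WT. Here Ch25hKO lay above the other 4 libraries, and LXRdKO overlapped with WT. As a share of the cytosolic sum, this came to 9.75% and 9.32% in Ch25hKO, 9.31% and 9.10% in LXRdKO, and 7.32% and 8.44% in WT, higher in all 4 knockout libraries than in WT. With Lars2 included, the mitochondrial class summed to 717.6 and 697.6 CPM in Ch25hKO and 635 and 675 CPM in LXRdKO. In WT this full sum was 745.4 and 718.9 CPM. Both knockouts then lay below WT, so the higher mitochondrial sum of Ch25hKO holds only without Lars2. The share of the cytosolic sum with Lars2 included is not given here. Such sums over chosen genes were given no test.

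**Figure D4:**
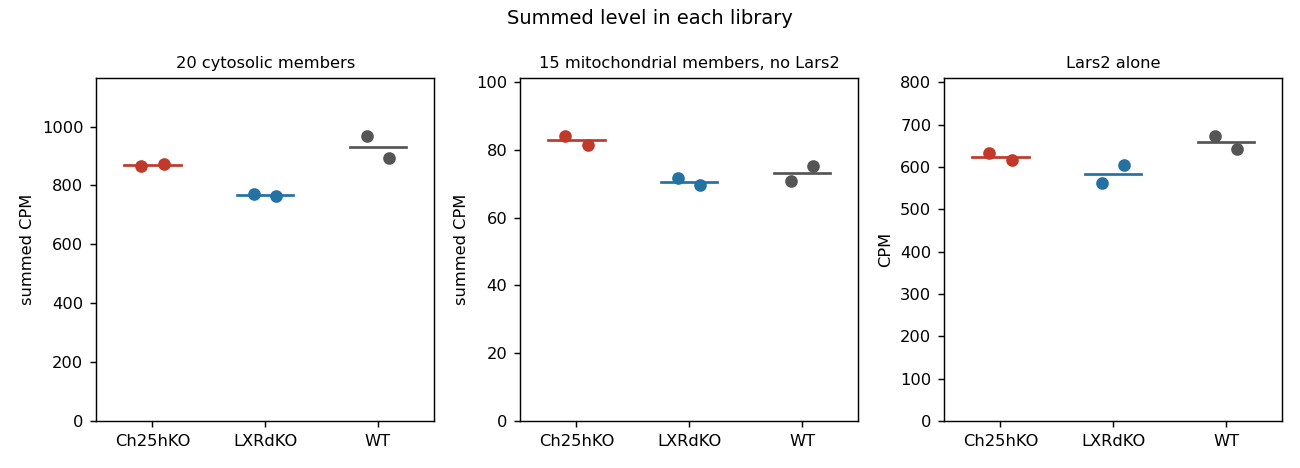
Summed level in CPM of 20 cytosolic synthetases, of 15 mitochondrial synthetases without Lars2, and the level of Lars2 alone, in each library (points) with group means (lines), for Ch25hKO, LXRdKO and WT from left to right. The cytosolic sum is lowest in LXRdKO at 770 and 765 CPM, and the mitochondrial sum without Lars2 is highest in Ch25hKO at 84.3 and 81.3 CPM.

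The scaffolds of the multisynthetase complex were read beside its enzymes. Aimp2 had 6.41 and 6.63 CPM in Ch25hKO, 4.35 and 3.46 CPM in LXRdKO, and 3.31 and 3.68 CPM in WT. It rose in Ch25hKO by 0.90 ± 0.13 (edgeR adjusted p = 3.30e-05) and was at 0.16 ± 0.14 in LXRdKO. Eef1e1 had 7.61 and 6.56 CPM in Ch25hKO, 4.78 and 4.03 CPM in LXRdKO, and 3.87 and 4.37 CPM in WT, a rise of 0.78 ± 0.13 in Ch25hKO (edgeR adjusted p = 0.000102) and 0.10 ± 0.14 in LXRdKO. For both, Ch25hKO stood above every other library, and LXRdKO overlapped with WT. Between the knockouts, Aimp2 fell by 0.74 ± 0.13 and Eef1e1 by 0.68 ± 0.13 in LXRdKO. Aimp1 did not pass in any comparison (0.09 ± 0.08 in Ch25hKO, -0.02 ± 0.08 in LXRdKO).

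Genes of the amino acid response driven by ATF4 were more often lower than higher in both knockouts. Of 22 members listed, 10 fell and 1 rose in Ch25hKO (median -0.23; 2 rose without WT replicate 2), and 13 fell and 0 rose in LXRdKO (median -0.39), where the count of rises was also 0 at an unadjusted p under 0.05 and with DESeq2 and limma-voom, and 1 rose without WT replicate 1. The share called was 50% in Ch25hKO, against 39.3% of all genes (19.5% lower), and 59.1% in LXRdKO, against 31.8% of all genes (15.5% lower). Atf4 itself fell by 0.24 ± 0.05 in Ch25hKO and by 0.30 ± 0.05 in LXRdKO. Asns, asparagine synthetase, had 11.4 and 12.2 CPM in Ch25hKO, 7.88 and 8.21 CPM in LXRdKO, and 14.4 and 14.5 CPM in WT. This order, LXRdKO below Ch25hKO below WT, was without overlap, with falls of 0.84 ± 0.08 in LXRdKO against WT (edgeR adjusted p = 7.13e-07) and 0.55 ± 0.09 in LXRdKO against Ch25hKO. Trib3, a pseudokinase of the same response, had 1.41 and 1.97 CPM in Ch25hKO, 1.25 and 1.06 CPM in LXRdKO, and 3.67 and 3.87 CPM in WT (-1.16 ± 0.18 in Ch25hKO and -1.70 ± 0.19 in LXRdKO). Ddit3, the stress transcription factor CHOP, was lowest in Ch25hKO, with 15.03 and 17.2 CPM there, 27.5 and 25.8 CPM in LXRdKO, and 32.2 and 29.3 CPM in WT.

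Slc7a11, the cystine transporter, was called in opposite directions in the knockouts, and had 518 and 502 CPM in Ch25hKO, 254 and 269 CPM in LXRdKO, and 397 and 446 CPM in WT. It was the 1 gene of the list that rose in Ch25hKO (0.28 ± 0.06), fell in LXRdKO (-0.69 ± 0.06, edgeR adjusted p = 1.28e-07), and had a direction of call in each knockout like that of Iars, Eprs and Tars. Atf3, a further stress factor, fell by 0.54 ± 0.06 in Ch25hKO and by 0.34 ± 0.06 in LXRdKO, and Cebpb, which pairs with ATF4, fell by 0.46 ± 0.05 in LXRdKO against WT and stood at 0.00 ± 0.05 in Ch25hKO. Between the knockouts, 6 members of the list were lower and 3 higher in LXRdKO, or 40.9% called, close to the 37.9% of all genes, and only 1 was higher without Ch25hKO replicate 1 or LXRdKO replicate 2.

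**Figure D5:**
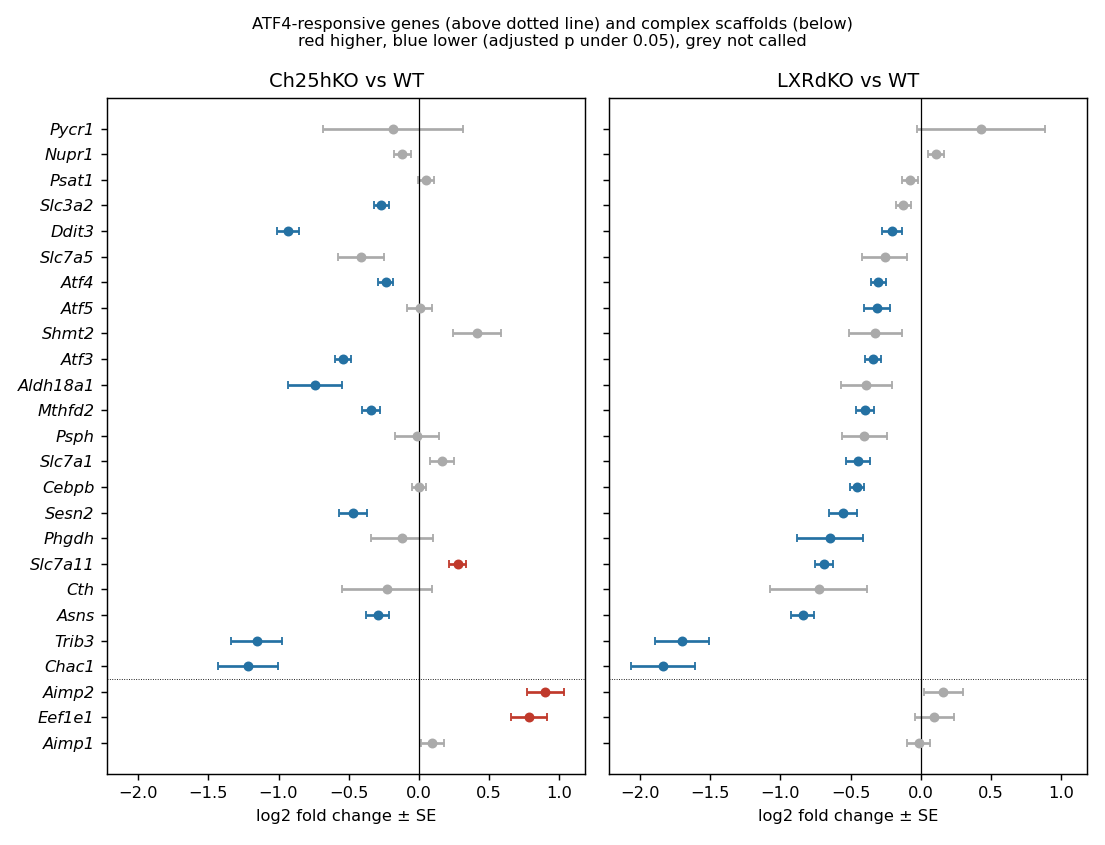
Log2 fold change ± SE of 22 ATF4-responsive genes (above the dotted line) and the 3 scaffolds of the multisynthetase complex (below it) for Ch25hKO against WT and LXRdKO against WT, n = 2 libraries per group. Aimp2 and Eef1e1 lie above WT in Ch25hKO at 0.90 and 0.78, and 13 of the 22 ATF4-responsive genes fell in LXRdKO.

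Upstream of ATF4, Eif2ak2, the RNA-sensing kinase PKR, fell by 0.47 ± 0.05 in Ch25hKO (edgeR adjusted p = 1.65e-06), and Eif2ak3, the ER stress kinase PERK, rose by 0.55 ± 0.12, a call lost without Ch25hKO replicate 1 (0.37). Ppp1r15b, a regulator of eIF2 alpha phosphatase, fell by 0.29 ± 0.06 in Ch25hKO and by 0.24 ± 0.06 in LXRdKO (lost without LXRdKO replicate 1, -0.19). Ppp1r15a, its stress-induced relative, fell by 0.24 ± 0.06 in Ch25hKO and by 0.33 ± 0.06 in LXRdKO. Eif2ak2 in LXRdKO stood at -0.15 ± 0.05 (edgeR adjusted p = 0.0340), a call lost without LXRdKO replicate 1 (-0.16), LXRdKO replicate 2 (-0.15), WT replicate 1 (-0.13) or either Ch25hKO library, and with the replicate block (edgeR adjusted p = 0.0675 with the block). Of the 7 genes in this list, 2 rose and 3 fell in Ch25hKO, and 3 fell in LXRdKO with 0 rises by edgeR, by DESeq2, by limma-voom and at an unadjusted p under 0.05, although 1 rose without WT replicate 1. This put 71.4% of the list past the threshold in Ch25hKO, against 39.3% of all genes, and 42.9% in LXRdKO, against 31.8% of all genes. The rises in Ch25hKO came to 1 with RLE scaling, with DESeq2 and without either LXRdKO library, WT replicate 2 or Ch25hKO replicate 2 and to 0 without Ch25hKO replicate 1. The falls in LXRdKO came to 1 without LXRdKO replicate 1.

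Charged tRNA is used by the elongation factors. Of 5 cytosolic elongation factors, Eef1d alone rose in Ch25hKO (0.29 ± 0.07), and 3 fell in LXRdKO, namely Eef2, the translocation factor (-0.33 ± 0.06), Eef1g (-0.26 ± 0.06) and Eef1b2 (-0.20 ± 0.05). The share called was 20% in Ch25hKO, below the 39.3% of all genes, and 60% in LXRdKO, against 31.8% of all genes. Eef1b2 stood at -0.14 ± 0.05 in Ch25hKO (edgeR adjusted p = 0.0513) and passed with RLE or upper-quartile scaling, and without WT replicate 2 both Eef1b2 (-0.19) and Eef2 (-0.23) passed there. Without LXRdKO replicate 2 only the fall of Eef2 remained, with Eef1g at -0.22 and Eef1b2 at -0.19, and Eef1b2 also lost its call without LXRdKO replicate 1 (-0.21). Of 9 mitochondrial translation factors, Mrrf, for ribosome recycling (0.55 ± 0.19), and Tufm, the mitochondrial elongation factor Tu (0.29 ± 0.10), rose in Ch25hKO, or 22.2% called, below the 39.3% of all genes. Both calls were lost with DESeq2, that of Mrrf also without WT replicate 1 (0.44) or Ch25hKO replicate 1 (0.40) and that of Tufm without WT replicate 2 (0.16) or Ch25hKO replicate 2 (0.20). Gfm2 fell in LXRdKO (-0.29 ± 0.08), the only call among the 9 there (11.1%, against 31.8% of all genes), and it was lost without LXRdKO replicate 2 (-0.25). Mitochondrial glutaminyl-tRNA is made by an amidotransferase from glutamate-charged tRNA, and of its listed genes and their partners, 4 in the table, Gatc rose in LXRdKO (0.31 ± 0.10, edgeR adjusted p = 0.0269), but missed the threshold by DESeq2, without WT replicate 1 (0.19) and without either LXRdKO library (0.31).

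Some members share exon sequence with neighbouring genes, and no strand setting is given, so reads of such stretches may be counted to either gene or to none. In GENCODE M21, Hars and Hars2 overlap head to head by 195 bases, Mars overlaps Ddit3 by 68 bases on the opposite strand, and Farsb overlaps Sgpp2 by 248. Iars2 shares up to 2034 bases with Rab3gap2 on the opposite strand, and Rab3gap2 was at 0.02 ± 0.06 in Ch25hKO and -0.19 ± 0.06 in LXRdKO against WT, so its value in LXRdKO had the same sign as that of Iars2. Aars shares up to 1326 bases with Exosc6 on the same strand, and Exosc6 was at 1.24 ± 0.24 in Ch25hKO, opposite to the fall of Aars. The part of these overlaps in the results was not tested.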

How the data were processed

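RNA sequencing of 6 libraries, 2 per genotype, was analysed from the raw read counts per gene symbol that the authors deposited without normalization. The submitters' processing notes list CASAVA, STAR 2.3.0, HTSeq and mm10. No annotation release, counting mode or strand setting was given in the sources used. Libraries were made from total RNA with the Ovation and Encore kits, per the labels' protocols. Groups and replicate numbers came from the sample titles.

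Counts were fitted across all genes with edgeR 4.0.16 (R 4.3.3): filterByExpr, TMM scaling, 1 mean per genotype over all 6 libraries, robust quasi-likelihood tests, and Benjamini-Hochberg adjustment over 12923 genes. This left 3 residual degrees of freedom, and the common biological coefficient of variation was 4.41%. A standard error is the fold change over the square root of the F statistic. Exon lengths and positions are from GENCODE M21 on GRCm38, the assembly of mm10, and longer unions of annotated exons lower RPKM. The procedure was tested on simulated data with the same spread for every gene and group and with planted changes larger than those of the members. It therefore does not show how the procedure does with smaller changes or with a wider spread in WT.

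The members and lists were chosen with earlier results of these data known. In each comparison the 6 cytosolic and 4 mitochondrial members with the lowest p were given in full, as were the 3 of each related list with the lowest p where they bear on the members. Alternatives were RLE and upper-quartile scaling, DESeq2 1.42.0, limma-voom (limma 3.58.1), no filter on low counts, at least 5 CPM in 2 libraries, a fit of the compared libraries alone, a block on replicate number, and the omission of single libraries, where a group left with 1 library was assumed to vary like the others. Atf4 lies outside this rule and was named after its values were seen. A planned comparison of protein sequences was not made.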

Additional observations from a re-analysis of the deposited data

How the results depend on the processing

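Across 14 alternative settings, 1476 values of the members were recomputed, of which 71 lost a call, 18 gained one and 0 reversed. Scaling by RLE or upper quartile changed no member's call. DESeq2 lost 10 member calls and gained 0, those lost being Gars, Pars2 and Rars2 in Ch25hKO, Iars, Kars, Vars and Iars2 in LXRdKO against WT, and Aars, Hars and Rars2 in LXRdKO against Ch25hKO. With it, cytosolic members came to 8 rising in Ch25hKO and to 7 falling in LXRdKO against WT and 11 against Ch25hKO, rising mitochondrial members in Ch25hKO came to 2, falling ones in LXRdKO to 1 against either WT or Ch25hKO, and rising cytosolic ones in LXRdKO against WT to 0. With at least 5 CPM in 2 libraries, which left low genes untested, 2 mitochondrial members rose in Ch25hKO and 0 cytosolic members rose in LXRdKO. A fit of the compared libraries alone also gave 0 rising cytosolic members in LXRdKO against WT. The 1 cytosolic member that rose there in the main fit was Vars, which the 5 CPM filter left untested. In the fit of the compared libraries alone Vars stood at 0.38 (edgeR adjusted p = 0.0604). Deviations of replicate 1 correlated at 0.04 (Ch25hKO with LXRdKO), -0.18 (Ch25hKO with WT) and -0.02 (LXRdKO with WT). These values gave no sign that like replicate numbers were paired. They do not tell if libraries were paired in another way, which the labels leave unknown. With the replicate block, 9 cytosolic members rose and 5 fell in Ch25hKO, and against WT in LXRdKO 0 rose and 1 mitochondrial member fell. A block with Ch25hKO numbers crossed, chosen after seeing the data, gave 9 and 6 cytosolic and 6 and 0 mitochondrial rises and falls in Ch25hKO.

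Leaving out 1 library in turn gave, for Ch25hKO against WT, 7 to 10 rising and 4 to 6 falling cytosolic members, 1 to 5 rising mitochondrial members, and 1501 to 2478 rising and 1758 to 2750 falling genes in all. For LXRdKO against WT it gave 0 to 3 rising and 7 to 9 falling cytosolic members, 0 to 1 rising and 0 to 2 falling mitochondrial members, and 1292 to 2097 rising and 1198 to 2232 falling genes. For LXRdKO against Ch25hKO it gave 2 rising and 10 to 14 falling cytosolic members, 1 to 2 falling mitochondrial members, and 1712 to 2930 rising and 1504 to 2828 falling genes. Depth limits the mitochondrial class most, down to 11 counts in a library.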
